A study of Mus musculus with 8 samples.

Results

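The genes described here encode the motor of anterograde transport along microtubules, kinesin-1, and the motor chain and cargo adaptors of retrograde transport by cytoplasmic dynein. They are the kinesin-1 heavy chains Kif5a, Kif5b and Kif5c, the kinesin light chains Klc1, Klc2, Klc3 and Klc4, the dynein heavy chain Dync1h1 and the adaptors Bicd1 and Bicd2. They were chosen by name, with their differences between the groups already known, and a probe was taken where its gene name or the gene of its RefSeq accession was one of these. That gave 10 genes and 19 probes, of 47242 gene names and 60273 probes on the array.

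The study asked how the RNA of blood-derived myeloid cells in the mouse brain after stroke differs with the donor's genotype for PSGL-1, a leukocyte glycoprotein that binds selectins and is encoded by Selplg. The KO group is made up of 4 samples labelled Psgl1-/- (replicates 5 to 8), from wild-type hosts that had received Selplg-knockout bone marrow carrying the red fluorescent protein DsRed. The WT group is made up of 4 samples labelled Psgl1+/+ (replicates 1 to 4), from wild-type hosts that had received DsRed bone marrow with intact Selplg. Both groups underwent a 30 min occlusion of the middle cerebral artery, a model of stroke, and brain tissue was taken at 7 days of reperfusion. Both were sorted as PI- DsRed+ CD11b+ Ly6G- CD3- CD45hi cells, so donor cells were recognised by DsRed in a host that kept its own wild-type brain cells. The number of animals behind a sample and their age are not given in the labels used here, so an error below measures only the spread between samples, part of which may be technical.

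Each sample was hybridised to 1 single-colour array. A level is given as scaled log2 signal, which is the log2 of the scanner's processed intensity after each array was set to the same 75th percentile, and a difference is KO minus WT on that scale with the standard error (SE) of a fit across all genes. Where a gene had several probes, the one with the highest mean over the 8 arrays stood for the gene. Of the 61473 gene spots, 76.1% to 88.2% per array were well above background, the lowest signal that was well above background lay between 2.99 and 4.63 per array, and no spot was saturated. The median difference over all 42432 tested genes was -0.33, and 30.8% of them had a difference above 0. Selplg itself averaged 13.18 ± 0.24 in KO and 13.82 ± 1.37 in WT (SD, n = 4 each), a difference of -0.64 (SE 0.65, limma adjusted p = 0.68) that was 0.0065 without WT 4. The probe's place relative to the deleted part of Selplg is not given, so this value is no check of the labels. The KO arrays filled slide columns 3 and 4 and the WT arrays columns 1 and 2, so an effect of the column and one of the genotype cannot be told apart.

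As background, kinesin-1 is a tetramer of a pair of heavy chains, which hydrolyse ATP and step towards the plus end of the microtubule, and a pair of light chains, which bind cargo and hold the idle motor in a folded state. Cytoplasmic dynein steps the other way and needs dynactin and an activating adaptor, such as a BICD protein, to move far on a microtubule. In leukocytes these motors carry lysosomes, mitochondria, secretory vesicles and phagosomes. Kif5b is the broadly expressed heavy chain, whereas Kif5a and Kif5c are known best from neurons. Klc1 is prominent in nerve tissue, Klc2 and Klc4 are found widely, and Klc3 is known from developing sperm.

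The 19 probes were 45 to 55 bases long with a GC content of 32.1% to 57.7%. The last 30 bases of the probes on which the results below turn are printed here so that the readings of one gene by different probes can be followed. They are written 5′ to 3′ as the array files give them, and capitals mark AATAAA or ATTAAA, the signal for cleavage and polyadenylation and its commonest variant. Klc3 (chromosome 7) and Bicd2 (chromosome 13) each had a single probe. The probes of Klc4 (chromosome 17), Kif5a (chromosome 10) and Klc1 and Dync1h1 (both chromosome 12) carry the transcript they were designed on.
Klc3 NM_001286038.1: ctccctgcaATTAAAggcggtgcactggta
Bicd2 NM_001039179.2: cacttagaaatgtttggatatgccactgta
Klc4 NM_029091.2: ctacaggtccacatatttcactgtttcttt
Klc4 XM_011246689: cactgtttctttAATAAAtgaaccaggtaa
Kif5a NM_008447.4: ctcattcatagccaaccctgacctcccatg
Kif5a NM_001039000.4: taagcatagtctcccttcctcgttgggcgt
Klc1 NM_008450.2: tgtctttctaacttctAATAAActcactcc
Klc1 NM_001025362: gcatggagaagcggaggagccgggagagtc
Dync1h1 NM_030238.2: gctgggtttagtaAATAAAacactaagcat
Dync1h1 ENSMUST00000107660: ggtgttgttcctcagaaggaggcactgatc

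One or both of AATAAA and ATTAAA, which can overlap each other, were found in 5 of the 19 probes on the strand as listed and in 1 on the opposite strand. Over all 60273 probes, 8.75% held one on the strand as listed and 4.56% on the opposite strand. The probes with one on the listed strand were those of Klc3 and Klc2, Klc1 NM_008450.2, Klc4 XM_011246689 and Dync1h1 NM_030238.2. The 2 Klc4 probes share a run of 34 bases and so are not independent readings, whereas the next longest run shared by any of the 171 pairs of probes was 9 bases. The array files place Klc4 XM_011246689 at chr17:46767574-46767633 on the minus strand of build mm9. They place Klc1 NM_001025362 at chr12:113027568-113027627 and Dync1h1 ENSMUST00000107660 at chr12:111897748-111897807, both on the plus strand. These listed positions span 60 bases, more than the probes' own length, and most other probes shown have no listed position.

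All 10 genes passed the filter, a signal well above background on at least 4 of the 8 arrays, as did 17 of their 19 probes. By the probe used for the gene, 4 genes had a positive and 6 a negative difference, where 30.8% of all tested genes were above 0. Measured against the median difference of all tested genes, 4 of the 10 lay below it. Klc3 and Bicd2 were lower on every KO array than on any WT array, and no gene was higher on every KO array, that is 2 genes lower and 0 higher. Of all tested genes, 10.9% were lower in this sense, 0.641% were higher and 11.6% did not overlap in either direction. The share that was lower ranged down to 2.55% and the share that was higher up to 1.55% under the other scalings, both with cyclic loess, while Klc3 and Bicd2 stayed without overlap. The median difference of the 10 genes was -0.25, against -0.33 over all tested genes. Since these differences were known when the genes were chosen, they are given as a description and no test is attached to them.

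**Figure D1:**
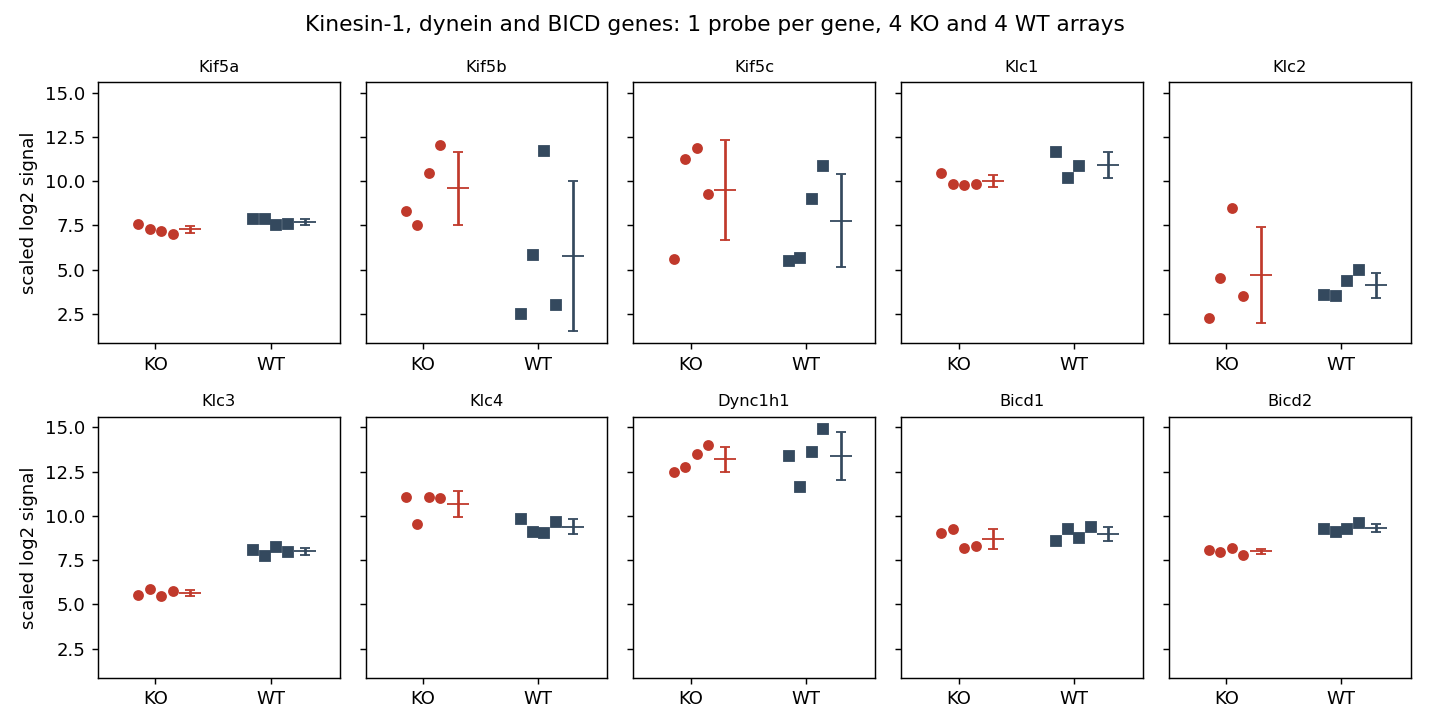
Scaled log2 signal of the probe used for each of the 10 genes, with 1 point per array, KO (red circles) left of WT (dark squares), and the group mean ± SD beside the points. Klc3 and Bicd2 separate without overlap, with KO below WT, while Kif5b, Kif5c and Klc2 spread widely within a group. Klc1 has 3 WT points.

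Among the heavy chains, Kif5b had a large difference by the probe used for the gene, with a wide spread. That probe, NM_008448.3, read 8.33, 7.52, 10.48 and 12.02 in KO 5 to 8, against 2.50, 5.83, 11.71 and 2.99 in WT 1 to 4, a difference of 3.83 (SE 2.09). WT 3 lay within the KO values, and WT 1 and WT 4 were not well above background. A second Kif5b probe, ENSMUST00000170959, pointed the other way. It read 6.93, 7.60, 6.82 and 7.16 in KO against 7.79, 7.57, 7.42 and 8.11 in WT, a difference of -0.60 (SE 0.29), and only KO 6 reached into the WT range. The sign for this heavy chain therefore depended on the probe, and the mean over both gave 1.62.

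Kif5a, a neuronal heavy chain, gave a similar split. Probe NM_008447.4 read 7.55, 7.28, 7.21 and 7.02 in KO, against 7.87, 7.84, 7.54 and 7.55 in WT, a difference of -0.44 (SE 0.24). The groups met at KO 5, which lay just above the lowest WT array, and the pooled SD of 0.2 was smaller than that of all but 3.01% of tested genes. Probe NM_001039000.4 read 5.71, 5.65, 7.81 and 12.57 in KO against 6.27, 6.14, 6.55 and 6.49 in WT, a difference of 1.57 (SE 1.46). KO 8 stood far above the rest there, and KO 5 and KO 6 were below every WT array.

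Kif5c, the other neuronal heavy chain, had a single probe. It read 5.62, 11.25, 11.89 and 9.28 in KO, against 5.50, 5.68, 9.01 and 10.87 in WT, a difference of 1.74 (SE 1.72). Low arrays near 5.6 occurred in both groups, so the difference was about as large as its error. The pooled SD was 3.32 for Kif5b and 2.73 for Kif5c, and 97.2% and 93.6% of tested genes had a smaller one, against a median of 0.758 over all tested genes.

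Among the light chains, Klc3 was the gene with the clearest separation. Its probe read 5.52, 5.85, 5.48 and 5.73 in KO 5 to 8, against 8.06, 7.76, 8.22 and 7.94 in WT 1 to 4. The highest KO array lay well below the lowest WT array, and all 8 values were well above background. The means were 5.64 ± 0.17 in KO and 7.99 ± 0.20 in WT (SD, n = 4 each), a difference of -2.35 (SE 0.23), or 5.10-fold lower in KO, and -2.02 relative to the median of all genes. The pooled SD of 0.186 was among the smallest on the array, with 2.12% of tested genes below it. Each slide row held 2 arrays of each group, so the row as a block left the difference at -2.35 by design. Within the rows it was -2.06 in row 1 and -2.64 in row 2.

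Klc3's KO signal lay closer to the lowest signal well above background than its WT signal did. When raw spot means were corrected by normexp with an offset of 50 and then quantile normalized, the difference was -1.43, the smallest in size of all settings tried, against -2.18 with quantile normalization of the processed signal. Which of the choices that differ between these settings moved the value was not tested. Klc3 was lower on every KO array than on any WT array under that setting too. The reading rests on 1 probe, and fewer cells of a type that makes Klc3 and less Klc3 RNA per cell cannot be told apart in these bulk samples.

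Klc4 was the light chain with the opposite sign. Probe NM_029091.2 read 11.07, 9.56, 11.04 and 11.02 in KO, against 9.82, 9.08, 9.01 and 9.67 in WT, a difference of 1.28 (SE 0.42). KO 6 fell between the WT values and the other KO arrays lay above all of them. The overlapping probe XM_011246689 read 9.89, 5.93, 9.14 and 9.50 in KO against 5.92, 5.77, 6.48 and 6.38 in WT, a difference of 2.48 (SE 0.84), again with KO 6 apart from the other KO arrays. A further probe, XM_006525042.1, fell outside the naming rule because its own accession was not assigned to Klc4, but a Klc4 transcript is among those it lists. It read 11.02, 10.80, 10.76 and 10.34 in KO and 10.91, 10.85, 10.97 and 11.52 in WT, a difference of -0.33 (SE 0.28). The higher KO signal was read by the pair of probes that share bases and not by this one. Whether XM_006525042.1 reads Klc4 RNA was not tested.

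Klc1, the light chain best known from neurons, was represented by 4 probes that did not move together. Probe NM_008450.2 read 10.48, 9.83, 9.77 and 9.84 in KO, against 11.64, 10.17 and 10.85 in WT 1 to 3, a difference of -0.91 (SE 0.42), and the spot of WT 4 was left out because the scanner marked it as an outlier. Only KO 5 was above the lowest of the WT values. Probe NM_001025360.2 read 8.47, 8.96, 7.52 and 6.93 in KO against 7.77, 7.80, 11.73 and 8.14 in WT, a difference of -0.89 (SE 0.96) in which WT 3 stood alone. Probe NM_001025362 read 10.98, 8.37, 7.50 and 9.97 in KO against 7.96, 8.17, 8.30 and 10.78 in WT, a difference of 0.40 (SE 0.93). Probe NM_001025359 was not well above background on any array and gives no level.

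Klc2, a widely expressed light chain, was near the detection limit. Its single probe read 2.26, 4.52, 8.49 and 3.50 in KO, against 3.59, 3.53, 4.33 and 4.99 in WT, and was well above background in KO 6, KO 7, KO 8 and WT 4. The difference was 0.58 (SE 1.24), and it was -0.68 without KO 7, the highest array.

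Dync1h1, the chain of cytoplasmic dynein that hydrolyses ATP and walks on the microtubule, differed between the groups by less than its spread. Probe NM_030238.2 gave 12.49, 12.76, 13.50 and 13.99 in KO, against 13.36, 11.64, 13.63 and 14.91 in WT, a difference of -0.20 (SE 0.70). WT 2 and WT 4 were the lowest and the highest array. Probe ENSMUST00000107660 gave 6.37, 6.84, 5.99 and 6.86 in KO against 6.92, 6.64, 6.47 and 7.25 in WT, a difference of -0.30 (SE 0.31). The sign of the first of these turned positive under 7 other settings, among them quantile normalization, at 0.09, and the omission of WT 4, at 0.31.

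Bicd2 was the second gene whose groups did not overlap. Its protein links dynein and dynactin to vesicles that carry Rab6 and, at the nuclear envelope, to the nuclear pore protein Ranbp2. The single probe read 8.06, 7.94, 8.16 and 7.78 in KO, against 9.26, 9.09, 9.24 and 9.62 in WT, with every KO array below every WT array. The means were 7.98 ± 0.16 in KO and 9.30 ± 0.23 in WT (SD, n = 4 each), a difference of -1.32 (SE 0.23), or 2.49-fold lower in KO, and -0.98 relative to the median of all genes. As for Klc3, the spread was small, with a pooled SD of 0.198 and 2.86% of tested genes below it. The slide row as a block left the difference at -1.32 by design, and within rows it was -1.49 in row 1 and -1.14 in row 2.

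Bicd1, the paralogue of Bicd2 that also binds Rab6, showed no such separation. Probe NM_009753.4 read 9.05, 9.28, 8.16 and 8.28 in KO, against 8.59, 9.26, 8.73 and 9.39 in WT, a difference of -0.30 (SE 0.36). Probe NM_001112796.2 read 8.43, 9.24, 7.48 and 7.16 in KO against 6.57, 8.38, 7.12 and 7.94 in WT, a difference of 0.57 (SE 0.59). The groups overlapped for both probes and the signs differed. A further Bicd1 probe, ENSMUST00000130270 at chr6:149446174-149446233 on the plus strand of mm9, was well above background in WT 4 only.

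**Figure D2:**
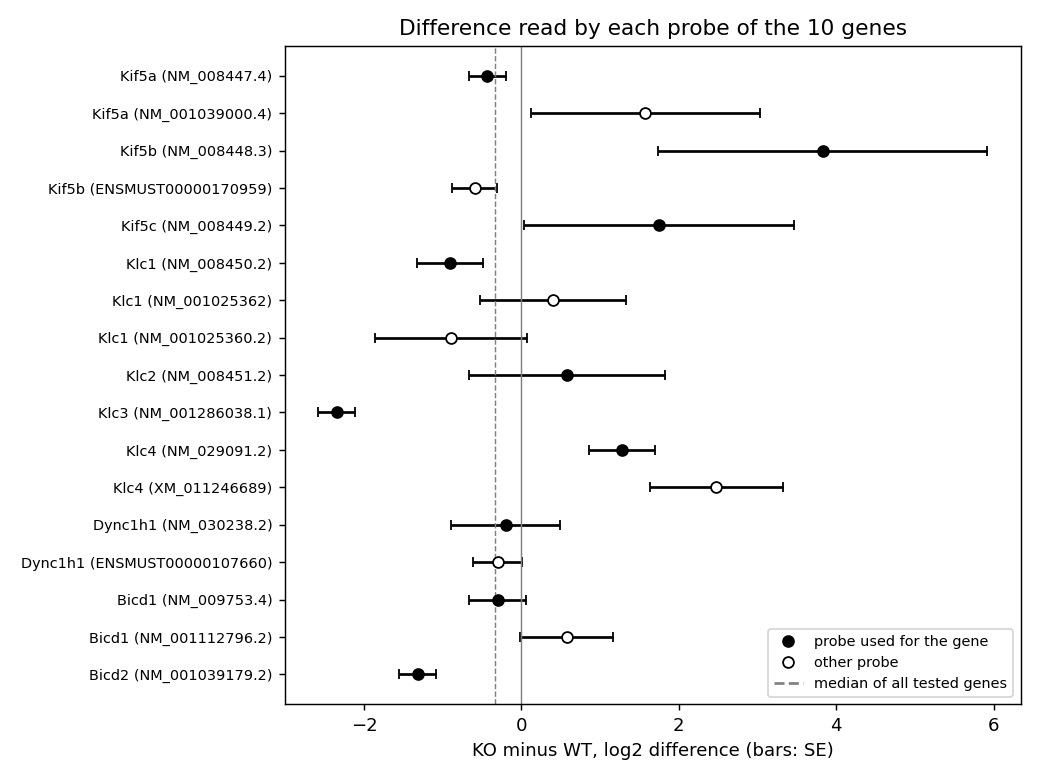
KO minus WT difference on the log2 scale, with its SE, for the 17 tested probes of the 10 genes; filled points are the probes used for the gene, open points the other probes, and the dashed line is the median of all tested genes, -0.33. Kif5a, Kif5b, Klc1 and Bicd1 have probes on both sides of 0.

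Across the 6 genes with more than 1 probe, 7 further probes were tested, and 3 of these matched the gene's chosen probe in sign. Klc3, Bicd2, Kif5c and Klc2 had 1 probe each and so no second reading. Over the settings tried, the difference ranged from -2.64 to -1.43 for Klc3, from -1.49 to -1.04 for Bicd2, from 0.91 to 1.88 for Klc4, from 1.62 to 5.81 for Kif5b and from 0.95 to 3.04 for Kif5c. It kept its sign under every setting tried for these and for Klc1, and it changed sign under at least 1 setting for Kif5a, Klc2, Dync1h1 and Bicd1. For the genes with 1 probe, the filters, the probe rules and the row block leave the difference unchanged by design.

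**Figure D3:**
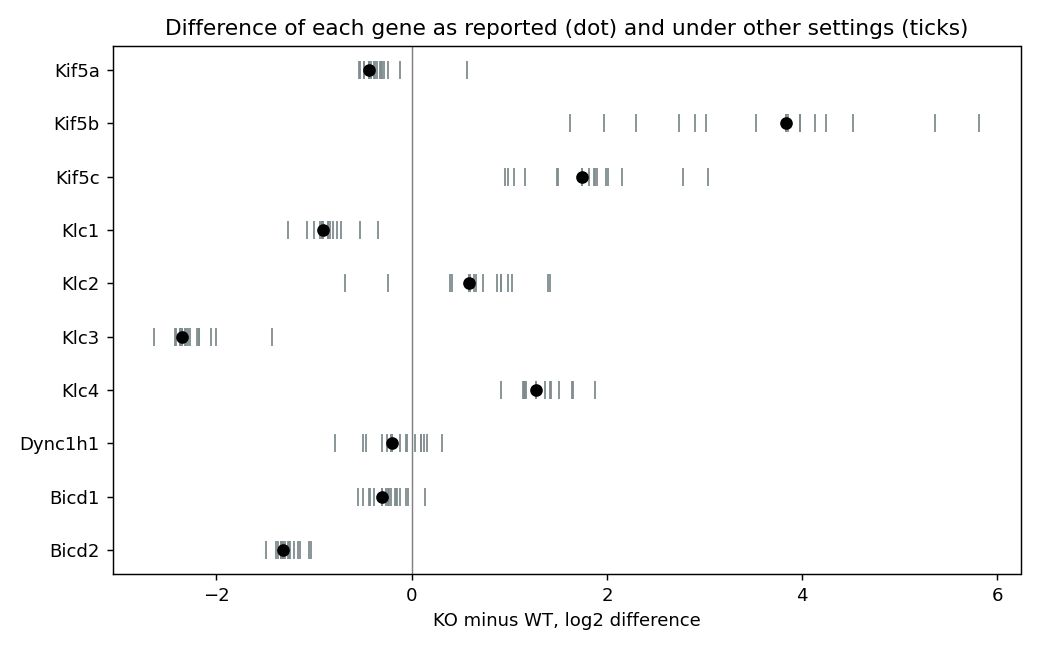
KO minus WT difference of each gene on the log2 scale as reported (dots) and under the other normalizations, filters, probe rules, slide rows and array omissions (ticks). The ticks of Klc3 and Bicd2 stay below 0 and those of Dync1h1 lie on both sides of it.

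The rest of the transport machinery was described from 7 lists of genes with 74 names, of which 73 were on the array and 72 were tested. None of the 72 passed an adjusted threshold of 0.05 in limma, where 0.00236% of all tested genes did. At an unadjusted p below 0.05, 3 were higher and 3 lower in KO, against 1.61% and 9.36% of all tested genes (11% in either direction). With cyclic loess, 4 were higher and 1 lower, against 2.94% and 1.89% of all tested genes, and with quantile normalization 4 and 1, against 2.13% and 4.44%. In the reported fit, those higher were Actr1a, Capzb and Mapk8ip3, and those lower were Mapk8ip1, Capza1 and Arl8a. Differences were positive for 36 genes and negative for 36, with a median of -0.01. Over all tested genes, 30.8% were positive with a median of -0.33, and 49.2% were positive with cyclic loess. These shares are the reference for the counts of each list below. The groups did not overlap for 2 genes higher in KO, Dync1li1 and Actr1a, and 5 lower, Mapk8ip1, Capza1, Arl8a, Rhot1 and Spdl1, where 0.641% and 10.9% of all tested genes did so. Capza1, Arl8a, Rhot1 and Spdl1 are named here after their values were seen.

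The subunits of the dynein motor other than the heavy chain had 6 positive and 4 negative differences of 10 tested, with a median of 0.39. Dync1li1, the light intermediate chain that holds activating adaptors such as BICD proteins, read 8.29, 6.15, 5.22 and 12.35 in KO, against 4.26, 4.98, 4.94 and 5.19 in WT, a difference of 3.16 (SE 1.43, limma adjusted p = 0.454). All KO arrays lay above all WT arrays, KO 7 by little, and 1 WT array was not well above background. The difference was 1.71 without KO 8, and a second tested probe of Dync1li1 gave -0.01 (SE 2.08). Dynlrb2, a roadblock light chain, had a difference of -1.03 (SE 0.49, limma adjusted p = 0.459).

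Dynactin, the complex that dynein needs to move cargo, had 8 positive and 4 negative differences of 12, with a median of 0.34. Actr1a, which forms the filament at its core, read 8.40, 11.43, 12.98 and 9.63 in KO, against 7.54, 7.36, 8.16 and 7.77 in WT, without overlap, a difference of 2.90 (SE 0.92, limma adjusted p = 0.454). Capzb, which caps that filament, had a difference of 1.82 (SE 0.66, limma adjusted p = 0.454) by the probe used. Its other tested probes gave 2.38 and -0.23. The dynein regulators had 4 positive differences of 4, with a median of 1.93 and the largest values for Nde1 at 3.35 (SE 1.83) and Ndel1 at 2.82 (SE 1.52), with limma adjusted p-values of 0.481 and 0.477. Nde1 was high in KO 7 and KO 8 only, at 10.89 and 11.80, against 3.81 to 5.16 over the WT arrays, and its difference was 2.02 without KO 8. Ndel1 was highest of all in WT 4, at 13.85, and its difference was 1.80 without WT 1, 4.42 without WT 4, 0.40 within slide row 1 and 5.23 within row 2.

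The activating adaptors other than Bicd1 and Bicd2 had 5 positive and 9 negative differences of 14, with a median of -0.15. Those with the smallest p were Rilp, which recruits dynein to late endosomes, at -0.65 (SE 0.37) and Hook3 at -1.71 (SE 0.99), with limma adjusted p-values of 0.49 and 0.492. Rilp was -0.41 without KO 8 or without WT 4, and Hook3 was -1.03 without WT 4, while the other tested probes of Hook3 gave 0.50 and -0.68. Of the cargo partners of the BICD proteins, Rab6a had a difference of 0.95 (SE 1.51, limma adjusted p = 0.8) and Rab6b of -0.18 (SE 0.59, limma adjusted p = 0.905). Neither partner differed beyond the spread between arrays.

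The adaptors and cargo partners of kinesin-1 had 4 positive and 13 negative differences of 17, with a median of -0.53. Of all tested genes, 30.8% were positive and the median was -0.33. Mapk8ip1, a scaffold of JNK kinases that binds kinesin light chains, read 10.63, 11.28, 10.85 and 10.54 in KO, against 11.97, 11.40, 11.74 and 11.67 in WT, without overlap, a difference of -0.87 (SE 0.27, limma adjusted p = 0.454). A second tested probe of Mapk8ip1 gave -0.20 (SE 0.37) with overlapping groups, and the mean over the gene's probes gave -0.53. Mapk8ip3, a related scaffold, went the other way at 2.09 (SE 0.79, limma adjusted p = 0.454), and its second probe gave 1.49 (SE 1.20). The other kinesins of vesicle transport had 7 positive and 5 negative differences of 12, with a median of 0.11, and Kif3a at 1.90 (SE 1.24, limma adjusted p = 0.526) and Kif21a at 0.74 (SE 0.45, limma adjusted p = 0.504) had the smallest p. Kif3a was 0.59 without KO 6, the highest array, and its second probe gave 0.19, and Kif21a was 0.43 without WT 4.

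**Figure D4:**
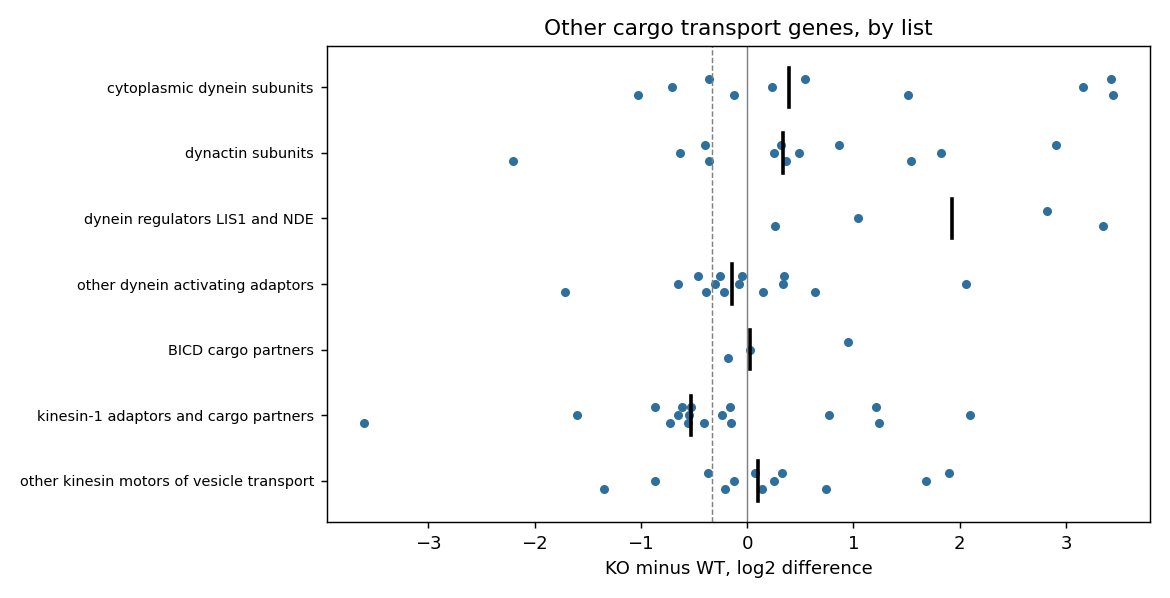
KO minus WT difference on the log2 scale for the 72 tested genes of the transport machinery outside the 10, 1 point per gene, by list; black bars are list medians, the solid line is 0 and the dashed line the median of all tested genes. Points lie on both sides of 0 in every list except the regulators LIS1 and NDE, where all 4 are positive.

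Neighbouring and overlapping genes were set beside the values of Klc3 and Bicd2. In the RefSeq annotation of GRCm38.p6, used only for order and overlap, 9 of the 10 genes overlap another annotated gene, of which 4 partners are protein-coding, and Bicd2 overlaps none. Klc3 overlaps Ercc2, a DNA repair helicase on the opposite strand. Ercc2 read 3.20, 3.97, 5.10 and 1.94 in KO, against 3.65, 3.91, 7.75 and 4.46 in WT, a difference of -1.39 (SE 1.05, limma adjusted p = 0.572), and was well above background on 2 KO and 3 WT arrays. Without WT 3 that difference was -0.45. Its groups overlapped where those of Klc3 did not. The neighbours of Bicd2, Fgd3 and Ippk, had differences of -0.06 (SE 0.34, limma adjusted p = 0.946) and -0.58 (SE 0.55, limma adjusted p = 0.653), and that of Ippk was -0.019 without WT 4.

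With the group means taken out, the genes whose signal followed Klc3 most closely over the 8 arrays were Mirlet7i (Pearson r = 0.968), Barhl1 (0.965), Gm6040 (0.956), Olfr820 (0.954) and Prl2b1 (0.950). These are the highest values of a search over all genes with a symbol and are given as a description only. The arrays share 1 slide and differ in background by slide row, and whether this has a part in these correlations was not tested. Among the other 9 transport genes, r with Klc3 ran from -0.46 for Klc4 to 0.33 for Dync1h1 and was -0.22 for Bicd2, and Klc1 was left out for its missing array.

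Markers of the sorted cells and of other cell types were summed by list as linear signal relative to the common 75th percentile. Signals of different probes are not on a common scale of RNA amount. The sums therefore compare arrays within a list and do not measure purity or the share of a cell type. All 10 myeloid markers were well above background on all 8 arrays, with sums of 183 to 374 in KO and 158 to 391.7 in WT. Of 10 neuronal markers, 8 were well above background on all 8 arrays, among them the defining markers Rbfox3 and Snap25. The sum of the list was 132 to 177 in KO and 190 to 295 in WT, so every KO array lay below every WT array. Snap25 and Syt1 made up 89.9% to 93.9% of that sum, each with a difference of -0.58 and no overlap, whereas the other 7 tested markers overlapped between the groups, Rbfox3 at -0.30, Tubb3 at 1.00 and Syn1 at 1.81 among them. In other lists, Cx3cr1 (myeloid) at -1.30, Pecam1 (endothelial) at -1.04, Siglech (microglia) at -0.55 and Csf3r (neutrophil) at -0.40 were also lower without overlap. So were 10.9% of all tested genes. S100a9 (neutrophil) was higher without overlap. Neurons express several of the transport genes, Kif5a, Kif5c and Klc1 among them. The sperm list, set here because Klc3 is known from sperm, summed to 6.95 to 13.0 in KO and 6.25 to 37.4 in WT. Sums ran from 6.67 to 10.01 in KO and 6.23 to 19.4 in WT for astrocytes, 6.72 to 19.3 in KO and 7.08 to 14.1 in WT for oligodendrocytes, and 2.61 to 14.1 in KO and 3.59 to 5.40 in WT for endothelium. They ran from 63.7 to 92.9 in KO and 79.5 to 139 in WT for microglia, 55.8 to 64.6 in KO and 58.9 to 89.5 in WT for neutrophils, and 1.27 to 2.37 in KO and 1.64 to 7.00 in WT for T cells. Csf3r made up 72.2% to 96.1% of the neutrophil sum and was lower in KO without overlap, at -0.40, and Mmp9 was negative too, at -0.35. The other 4 of the 6 neutrophil markers had a positive difference, with S100a9 at 4.78 without overlap (SE 1.43, limma adjusted p = 0.454) and Ly6g at 2.39. The part of any of these in the values of Klc3, Bicd2 and the other genes was not tested.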

How the data were processed

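RNA of 8 sorted cell samples (4 KO, 4 WT) was amplified with random primers, labelled with cyanine 3 and hybridised to 1 array each, per the labels' protocols. The deposited scanner files hold linear spot intensities corrected for background by Agilent Feature Extraction 11.5.1.1, and name build mm9, per the file headers. A second deposited file, the series' value matrix, holds linear intensities with identical sorted columns (median 132.95), as quantile normalization gives. Matched by probe accession, its columns had a log2 correlation of at least 0.998 with the array they name and of at most 0.809 with the remaining arrays. It served as an alternative only.

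Control spots (1439) and 25 to 149 outlier spots per array were left out, and spots of a probe were averaged. Probes were named through RefSeq accessions (31064), symbols (8935) or older symbols (420), and 19854 kept their own identifier. Each array's log2 signal was set to the same 75th percentile, genes needed a signal well above background on 4 of 8 arrays, and limma 3.58.1 (lmFit, eBayes) in R 4.3.3 was fitted to 42432 genes with Benjamini-Hochberg adjustment. The number of arrays limits the precision. The fit was also run on simulated data with independent noise and 200 genes changed. Those data lack the shift over all genes and the outlying arrays seen here, so they do not check how the fit handles these. Other tools were the R package data.table (version 1.17.8), Python 3.11.15, numpy 2.4.6, pandas 2.3.3 and matplotlib 3.10.9.

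Named genes were the 10 genes with all probes, Selplg, the 2 genes of smallest p in each transport list, the annotated neighbours of Klc3 and Bicd2, and the 5 genes most like Klc3. The genes and lists were chosen with earlier results of these data known. Alternatives were other normalizations, background corrections, filters, probe rules, slide rows and omissions of an array.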

Additional observations from a re-analysis of the deposited data

Results flagged for a closer look

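In 6 of the 62 groups of 4 arrays checked, 1 array stood apart from the other 3 by Dixon's criterion for a single outlying value, where chance alone gives about 1 in 20 groups. Probe NM_008450.2 of Klc1 read 10.48 in KO 5, against 9.77 to 9.84 in the other KO arrays. Probe NM_001025362 of Klc1 read 10.78 in WT 4, against 7.96 to 8.30 in the other WT arrays. Probe NM_001025360.2 of Klc1 read 11.73 in WT 3, against 7.77 to 8.14 in the other WT arrays. Probe NM_029091.2 of Klc4 read 9.56 in KO 6, against 11.02 to 11.07 in the other KO arrays. Without KO 6 the Klc4 difference was 1.65 and its groups no longer overlapped, with KO higher, as for 1.45% of all tested genes under that omission. KO 6 was the only KO array within the WT values of Klc4, so leaving it out made that separation certain. Outside the 10 genes, Capzb read 11.62 in KO 6, against 13.98 to 14.32 in the other KO arrays, and Rab6b read 6.24 in WT 1, against 4.81 to 4.90 in the other WT arrays. The causes were not tested.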

How the results depend on the processing

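No paired analysis was possible because the groups share no replicate number. The count of all genes past the adjusted threshold was 1 in the reported fit, 4 with cyclic loess, 7 with a signal well above background on all 8 arrays, 5 with the mean over a gene's probes, 2 with the slide row as a block, 0 within slide row 1 and 0 within row 2, and 9 with every probe on its own. It ran from 0 to 10 with 1 array left out, the highest without WT 3 or KO 6. At an unadjusted p below 0.05 there were 4656 genes as reported, 2787 with quantile normalization and 2049 with cyclic loess. The 72 transport genes outside the 10 gave 0 calls under every setting tried. The 10 genes held 2 without overlap (Klc3 and Bicd2, both lower in KO), 3 with normexp (Kif5a added) and 2 to 4 with 1 array left out. The count was 4 within slide row 1 (Kif5a added as lower, Kif5b as higher). It was 4 within row 2 (Klc1 added as lower, Klc4 as higher). Over all tested genes the share without overlap was 6.2% with normexp, 13.6% to 18.7% with 1 array left out, 45.1% within row 1 and 39.5% within row 2. Of all tested genes, 36.7% were lower and 8.32% higher within row 1, and 30.8% and 8.72% within row 2. Without KO 5, Kif5a and Klc1 joined as lower, where 16.8% of all tested genes were lower. Without WT 3, Kif5a joined as lower and Kif5b as higher, where 16.3% and 1.43% of all tested genes were so. Klc1 also joined as lower without WT 2 (14.2% of all tested genes), and Klc4 as higher without KO 6 (1.45%). The median difference of all genes, -0.33 as reported, was -0.17 with quantile normalization, -0.18 with the array median, -0.01 with cyclic loess, -0.11 with normexp and -0.16 in the value table.

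Of 354 alternative values for 18 genes outside the 10, 335 kept their direction and their side of the threshold and 19 turned in sign. Rab6a was 2.48 within row 1 and -0.58 within row 2, and -0.40 (without WT 2) to 1.76 (without WT 1) with 1 array left out. Rab6b was 0.11 with quantile normalization, 0.25 with cyclic loess, 0.11 with normexp, 0.12 in the value table, 0.91 within row 1 and -1.28 within row 2, and 0.03 to 0.16 without WT 1, KO 5 or KO 7 (-0.66 without KO 8). Fgd3 was 0.0028 with quantile normalization, 0.089 with the array median, 0.21 with cyclic loess, 0.0084 in the value table, 0.39 within row 1 and -0.52 within row 2, and up to 0.14 without WT 4, KO 5 or KO 7 (-0.30 without KO 8). Selplg was 0.0065 without WT 4 and -1.02 without WT 2. Averaging all probes turned Kif5a to 0.57 and Bicd1 to 0.14. The causes were not tested. Few arrays, 1 probe for Klc3 and for Bicd2, and signal near background for Klc2 and Kif5b limit the precision.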
